A study of Mus musculus with 4 samples.

Results

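The 69 genes described here encode the heat shock proteins and their partner chaperones of mouse lens, read as RNA in 4 lens libraries. Members were chosen by gene name and not by any measured value: the Hsp70 family (11 genes, with *Hspa5* left out), Hsp110 (1 gene), the cytosolic Hsp90 pair (2 genes), the mitochondrial chaperonin pair Hsp60 and Hsp10 (2 genes), the small heat shock proteins (6 genes), the DnaJ proteins of class A (4 genes), B (10 genes) and C (25 genes), and the CCT subunits named Cct (8 genes). They are 69 of the 14924 genes in the normalized expression table and 69 of the 76 genes with such names in the mouse annotation. *Hspa14*, *Hspb7*, *Hspb9*, *Dnajb7*, *Dnajb8*, *Dnajb13* and *Dnajc22* were not analysed here. *Hspb11* fits the naming rule, although its protein works in intraflagellar transport.

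Lenses of 1-month-old *S100A4*-/- mice (labelled S100A4 null, 2 libraries) were compared with lenses of WT littermates (2 libraries), and both groups were on a C57BL/6J background (C57BL/6 in the strain label), with no treatment named in the labels. The null mice were of a knockout strain, so the loss of S100A4 was not limited to the lens. Each library came from 6 to 12 pooled lenses, which are described as biological replicates, so n = 2 per group throughout and libraries of a group differ as pools do. The intervals and standard errors given below also draw on the variance of other genes of like level. The value of a gene is its number of reads divided by the size factor of the library, and 1 read was worth 0.856 and 1.01 in the null pools and 1.04 and 1.09 in the WT pools, from 81602367, 74108017, 70253985 and 68038158 reads on genes. *S100a4*, the targeted gene, had values of 14.6 and 18.2 in *S100A4*-/- and of 14420 and 14385 in WT lenses, so each library fitted its label.

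Heat shock proteins bind unfolded or partly folded proteins. Hsp70 and Hsp90 fold them in cycles of ATP hydrolysis, DnaJ proteins hand clients to Hsp70 and speed its ATPase, Hsp110 proteins exchange its nucleotide, small heat shock proteins hold unfolding proteins in a soluble form without ATP, and the CCT ring folds actin and tubulin. In the lens, whose fiber cells keep their proteins for life, the alpha-crystallins are small heat shock proteins that also serve as structural proteins, and the heat shock factor HSF4 is needed for lens clarity.

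In *S100A4*-/- lenses the 95% interval of the change lay within 1.5-fold of WT for 60 of the 69 chaperone genes, and not for the other 9, *Hspa1a* and *Hspa12a* among them. By limma, with p-values adjusted after Benjamini and Hochberg over the 14780 genes tested, 0 members passed the rule of the study, a change of at least 2-fold at an adjusted p no higher than 0.05, where 3.65% of all genes tested rose and 0.0744% fell by that rule. Without the fold threshold 0 members rose and 1 fell, against 5.62% and 1.33% of all genes. Most members had a mean value of at least 100. Of the 10133 genes tested at that level, 160 rose and 5 fell by the rule of the study. Without the fold threshold 432 of these rose and 189 fell, beside 0 and 1 of the 63 members at that level. The one that fell was *Hspb1*, the small heat shock protein Hsp25 of the mouse, to 0.890 times the WT level. At an unadjusted p under 0.05 by limma there were 9 members, 2 higher and 7 lower. Of all genes tested 17.7% passed, 1620 higher and 991 lower. By edgeR's quasi-likelihood test on the recovered reads 1 member rose (*Hspa12a*) and 0 fell, beside 5.81% and 1.22% of all genes. By DESeq2's Wald test 0 rose and 0 fell, beside 3.86% and 0.609% of all genes.

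The sum over the 69 members took 0.3826% and 0.3762% of the reads of *S100A4*-/- lenses, beside 0.3815% and 0.3783% of those of WT lenses, so the groups overlapped. The median log2 fold change over the members was −0.05, beside −0.01 over all genes tested. On libraries scaled to equal totals these medians were −0.02 and 0.02. The single values ran from −0.68 for *Hspa1l* to 0.98 for *Hspa1a*, which are also the 2 members with the fewest reads. Both *S100A4*-/- values lay above both WT values for 10 members and below both for 23 members, where 23.7% and 23.2% of all genes tested did so. Of the 69 members, 26 had a fold change above 0 on the log2 scale and 43 below, beside 7215 and 7565 of the 14780 genes tested. Among genes whose mean value reached 100, 24 of 63 members lay above 0 and 39 below, beside 4389 and 5744 of 10133 genes. In that set both *S100A4*-/- values lay above both WT values for 9 members and below both for 21, beside 1979 and 2724 genes. Here, as in any bulk sample, fewer cells of a type and less RNA per cell cannot be told apart.

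**Figure D1:**
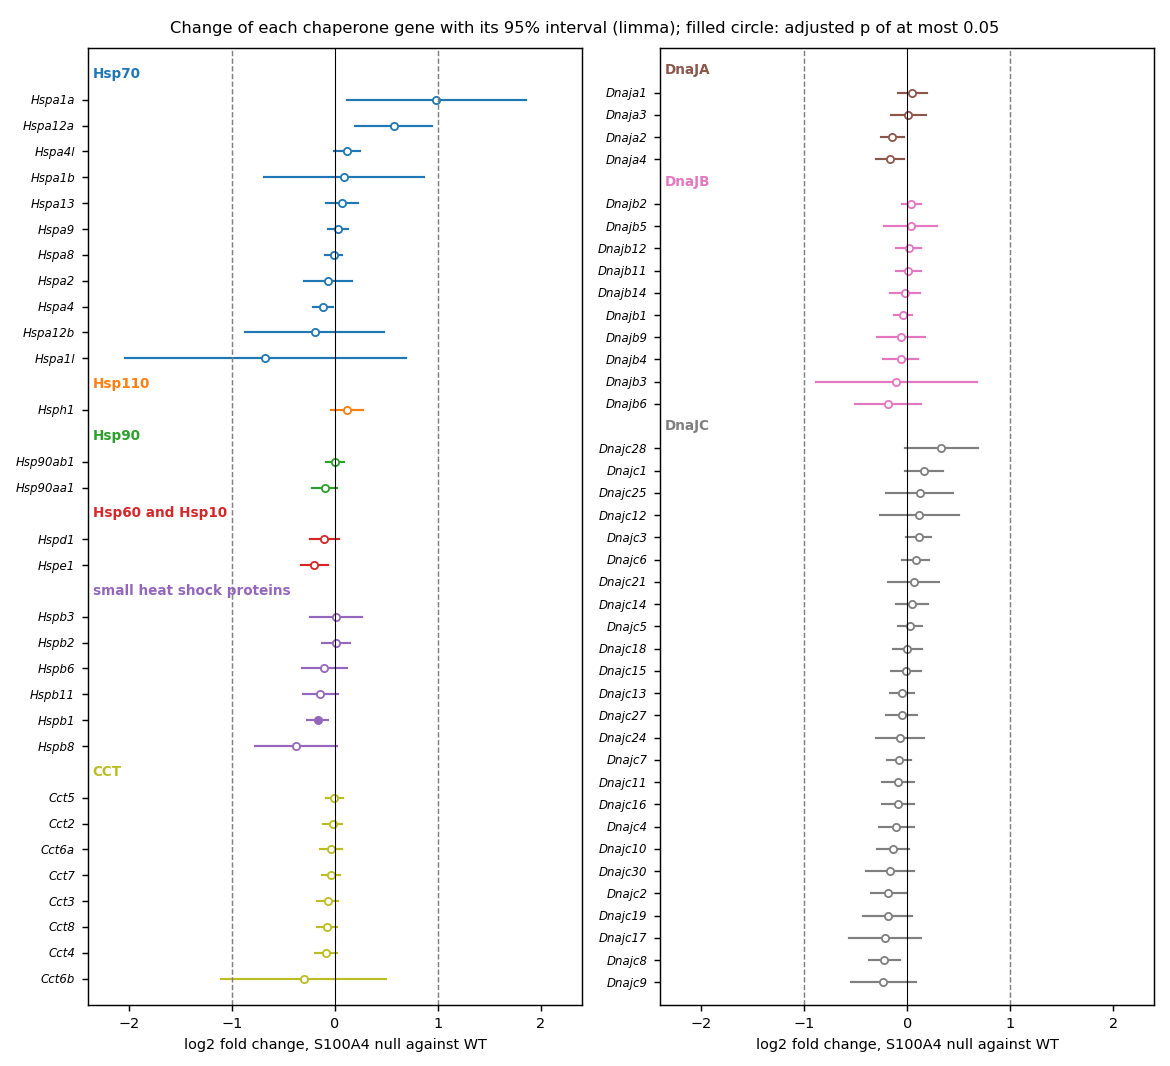
Log2 fold change of each of the 69 members, *S100A4*-/- against WT (n = 2 libraries each), on the log2(value + 1) scale with its 95% interval from limma. Dashed lines mark a 2-fold change either way, the filled circle is *Hspb1*, the member with an adjusted p of at most 0.05, and the intervals of *Hspa1a*, *Hspa1l* and *Cct6b* reach past a dashed line.

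How large a change could have gone unseen depended on the level of the gene. For the 36 members whose mean value reached 1000, the 95% interval of the log2 fold change reached a median of 0.12 to either side. It reached 0.23 for the 27 members between 100 and 1000, and 0.79 for the 6 members under 100, which are *Cct6b*, *Dnajb3*, *Hspa12b*, *Hspa1a*, *Hspa1b* and *Hspa1l*. The interval lay within a 2-fold change either way for 66 of 69 members (95.7%) and for 77.1% of all genes tested. Within a 1.5-fold change it lay for 60 members (87.0%) and for 64.8% of all genes tested. Among genes whose mean value reached 100 the same shares were 63 of 63 members beside 97.8% of genes, and 60 of 63 members beside 92.1% of genes. These widths rest in part on the variance that limma estimated over genes of like level, not on the 2 pools of a gene alone. On that basis most chaperones were bounded to a change of less than 1.5-fold, whereas the 6 low members were not.

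Levels of different genes were compared per kilobase of the principal transcript. In WT lenses *Hsp90ab1*, the constitutive cytosolic Hsp90, was the highest member with a mean value of 35579 per kb, and *Hspb1* was the next with 31065 per kb. *Cct5*, a subunit of the CCT ring, followed with 11241 per kb, *Hspa8*, the constitutive Hsp70, with 7555 per kb, and *Dnajb1*, the main class B partner of Hsp70, with 5299 per kb. The lowest members were *Hspa1l*, *Hspa1a* and *Hspa1b*, with 4.78, 5.23 and 9.96 per kb, and the last 2 of these are the heat-inducible Hsp70 genes. So the constitutive form stood far above the inducible form, and the ratio of *Hspa8* to *Hspa1a* per kb was 801 and 615 in *S100A4*-/- lenses, beside 1494 and 1400 in WT lenses. The ratio of *Hspa8* to *Hspa1b* was 835 and 615 in *S100A4*-/- and 898 and 661.5 in WT lenses, which overlapped, and both ratios rest on few reads of the inducible genes. For Hsp90 the ratio of the constitutive *Hsp90ab1* to the inducible *Hsp90aa1* was 56.6, 59.9, 54.6 and 53.6 in the same order of libraries. With the length of all exons in place of the principal transcript, *Hsp90ab1* and *Hspb1* stayed first and second, and *Hspa1a*, *Hspa1b* and *Hspa1l* stayed the lowest.

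**Figure D2:**
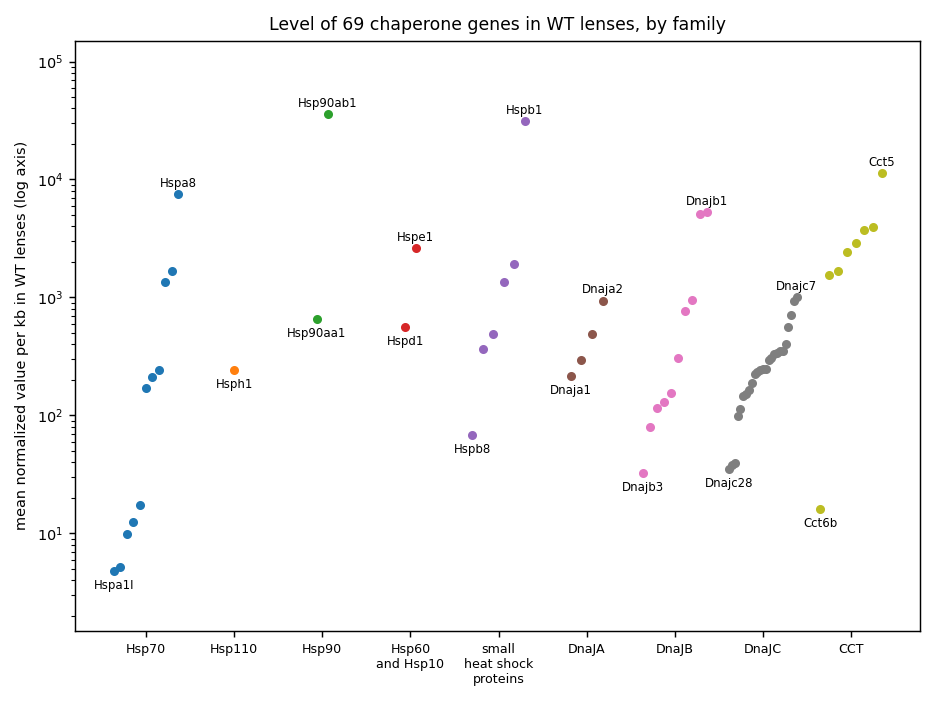
Mean normalized value per kb of the principal transcript in the 2 WT libraries (log axis) for the 69 members by family, 1 point per gene, with the highest and lowest gene of each family named. *Hsp90ab1* and *Hspb1* stand at the top, with 35579 and 31065 per kb, and *Hspa1l* at the bottom with 4.78 per kb.

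These levels rest on reads of a single genomic locus, and some members share sequence with paralogs or processed pseudogenes. Of the stretches of 50 bases, the length of a read, in the principal transcript of *Hspa8*, 74.8% also occurred in a transcript of another gene. The share was 71.4% for *Hspa1l*, the lowest member per kb, which shares most with *Gm10501*. It was 66.3% for *Hspa1a* and 62.3% for *Hspa1b*, which share most with each other. For *Hspb1*, which shares most with the pseudogene *Hsp25-ps1*, it was 60.4%, and for *Hsp90aa1* 58.5%. The share was above 10% for 19 members and above 50% for 7, and 34 members had none. Absolute levels of those with a large share are uncertain, and the split between *Hspa1a* and *Hspa1b* in particular.

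By limma the small heat shock proteins had the only call. *Hspb1* (ENSMUSG00000004951, GRCm38 chr5:135887919-135889563, plus strand) is shown here with the 150 bases before its start site (RefSeq, GRCm38.p6, chr5:135887769-135887918), and the inducible Hsp70 pair is shown beside it (chr17:34972157-34972306 and chr17:34959239-34959388, minus strand) to show stress-inducible genes of a high and of a low level. Capitals mark the heat shock element of 2 units, the letters GAANNTTC or TTCNNGAA, which read the same on both strands.
Hspb1: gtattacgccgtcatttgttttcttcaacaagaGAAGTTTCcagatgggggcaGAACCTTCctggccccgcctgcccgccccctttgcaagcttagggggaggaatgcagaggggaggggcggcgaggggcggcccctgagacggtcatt
Hspa1a: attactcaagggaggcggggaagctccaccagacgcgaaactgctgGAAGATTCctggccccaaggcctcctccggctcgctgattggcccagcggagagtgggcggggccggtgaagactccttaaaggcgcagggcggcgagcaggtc
Hspa1b: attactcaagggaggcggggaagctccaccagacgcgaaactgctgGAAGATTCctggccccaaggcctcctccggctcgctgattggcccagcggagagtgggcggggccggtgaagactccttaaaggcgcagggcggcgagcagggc
The stretch of *Hspb1* held 2 such elements, which begin 117 and 97 bases before the start site, and those of *Hspa1a* and *Hspa1b* held 1 each, 104 bases before it. The stretches of the Hsp70 pair had the same base at 149 of 150 positions.

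The value of *Hspb1* was 23034 and 27053 in *S100A4*-/- and 28312 and 27792 in WT lenses. Both *S100A4*-/- values were below both WT values, but the second came near the WT range and the fall rested largely on the first. The log2 fold change was −0.17 (SE 0.05, adjusted p = 0.0254, limma), a level of 0.890 times WT with a 95% interval from 0.831 to 0.953. Without the first *S100A4*-/- library the log2 fold change was −0.05 (adjusted p = 0.578, limma), and the call was also lost without either WT library, on libraries scaled to equal totals (adjusted p = 0.134), by edgeR (adjusted p = 0.0529) and by DESeq2 (adjusted p = 0.753).

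The first *S100A4*-/- library was also the lowest of the 4 for both alpha-crystallins. This was not particular to them, since it was also lowest for *Hsp90ab1*, *Hspd1*, *Tcp1* and *Hsf4*, among others. For *Hspe1*, *Hspb8* and *Dnajc8* the second *S100A4*-/- library was the lowest. The values summed over all genes were 6.99e+07 and 7.51e+07 in *S100A4*-/- and 7.34e+07 and 7.45e+07 in WT lenses. *Cryaa*, alpha-A-crystallin, had values of 11948842 and 13289361 in *S100A4*-/- and of 13062948 and 13333352 in WT lenses, with a log2 fold change of −0.07 (SE 0.07, adjusted p = 0.714, limma). *Cryab*, alpha-B-crystallin, had values of 3005754 and 3255228 against 3313835 and 3376305, with a log2 fold change of −0.10 (SE 0.06, adjusted p = 0.420, limma), which passed the threshold without the second *S100A4*-/- library (−0.15, adjusted p = 0.0213, limma) and was −0.04 without the first (adjusted p = 0.695, limma). The ratio of *Cryab* to *Hspb1* per kb was 105 and 97.3 in *S100A4*-/- and 94.6 and 98.2 in WT lenses, so that of the second *S100A4*-/- library fell between those of the WT libraries. The part of the first *S100A4*-/- library's composition in the *Hspb1* result was not tested.

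The other small heat shock proteins did not pass the test. *Hspb8*, which works with the cochaperone BAG3 in the clearance of misfolded proteins, had values of 108.8 and 85.1 in *S100A4*-/- and of 125.3 and 124.8 in WT lenses. The groups did not overlap, and the log2 fold change was −0.37 (SE 0.20, adjusted p = 0.322, limma), with an interval from −0.77 to 0.02. *Hspb2*, which lies head to head with *Cryab* with start sites of the GENCODE principal transcripts 968 bases apart, had 1438 and 1524 against 1512 and 1434. *Hspb6* had the largest ratio between libraries of the same group in this family, with 512.1 and 755.1 in *S100A4*-/- and 682.9 and 652.6 in WT lenses. Both *Hspb2* and *Hspb6* overlapped between the groups.

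By limma no Hsp70 gene passed the test, and 6 lay above 0 and 5 below. The median log2 fold change of these genes was 0.03, which turned to −0.03 without the second *S100A4*-/- library and was 0.06 with equal totals. *Hspa8* (ENSMUSG00000015656, GRCm38 chr9:40800984-40810087) had values of 17709 and 18098 in *S100A4*-/- and of 17617 and 18558 in WT lenses. The WT libraries bracketed the *S100A4*-/- ones, and the log2 fold change was −0.01 with an interval from −0.10 to 0.07. *Hspa4*, an Hsp110-like member that acts on the nucleotide exchange of Hsp70, had values of 5671 and 5789 against 6148 and 6245, with a log2 fold change of −0.11 (SE 0.05, adjusted p = 0.179, limma). Its groups did not overlap, whereas those of *Hsph1*, the Hsp110 gene, lay the other way round.

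*Hsph1* had values of 966.8 and 1043 in *S100A4*-/- and of 954.4 and 900.0 in WT lenses, with a log2 fold change of 0.12 (SE 0.08, adjusted p = 0.463, limma), which ran from 0.06 to 0.17 with 1 library left out. Of the inducible pair, *Hspa1a* had values of 27.4 and 36.5 against 14.6 and 16.4, from 32, 36, 14 and 15 reads. The groups did not overlap and the level was 1.98 times WT, but the interval ran from 1.08 to 3.61 and the adjusted p was 0.199 (limma). *Hspa1b*, with nearly the same sequence, had values of 24.8 and 34.5 against 23.0 and 32.8, which overlapped, with a log2 fold change of 0.09 (SE 0.38, adjusted p = 0.942, limma). These few reads neither show a change of the inducible Hsp70 genes nor bound it to less than 1.5-fold.

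*Hspa12a*, a distant member of the family, was nearest to the threshold among those with a positive change. Its values were 159.3 and 138.8 in *S100A4*-/- and 100.2 and 99.6 in WT lenses, so all of the first lay above all of the second. The level was 1.48 times WT (interval 1.15 to 1.92), with an adjusted p of 0.0530 by limma, 0.0454 by edgeR and 0.308 by DESeq2. By limma it was 0.171 with quantile normalization, 0.151 without the trend and 0.381 without the first *S100A4*-/- library. Many markers of retinal cells, though not all, moved the same way in these libraries. All 14 of 14 rod photoreceptor markers rose (median log2 fold change 2.00), their summed value was 11872 and 11544 in *S100A4*-/- and 2885 and 3046 in WT lenses, the most abundant was *Gnat1*, the rod transducin subunit, with 3339, 3327, 736.1 and 781.8, and none was at 0 in any library. Of the amacrine and ganglion cell markers 6 of 10 rose, with a sum of 1414 and 1417 against 549.2 and 575.9, with *Slc6a9* as the most abundant at 846.9, 896.9, 253.7 and 309.9, and with *Gad2* and *Slc17a6* at 0 in at least 1 library. Of the other marker lists 5 of 8 rose for cones, 3 of 7 for bipolar cells, 5 of 10 for Müller glia and astrocytes, 6 of 8 for pigment cells, 5 of 7 for the ciliary body, 4 of 8 for macrophages, 2 of 7 for endothelium and 1 of 5 for erythrocytes. Below 0 on the log2 scale lay 1 bipolar marker (*Cabp5*), 2 of Müller glia and astrocytes (*Gfap* and *Clu*) and 1 of endothelium (*Tek*). The part of RNA of such cells in the *Hspa12a* result was not tested.

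Of the lens fiber markers none passed the test. All 15 of the 15 lens fiber markers had reads in every library (limma, with 2 at an unadjusted p under 0.05), and their summed share of the reads was 42.2% in each *S100A4*-/- library and 43.1% and 42.4% in the WT libraries. Of 8 lens epithelium markers 1 fell, *Aldh1a1*, with values of 15994 and 17598 against 18794 and 18527 and a log2 fold change of −0.15, and this call was lost without the first *S100A4*-/- library (−0.08, adjusted p = 0.338, limma), without either WT library, with equal totals, without the trend, by edgeR and by DESeq2. The labelled tissue thus carried its defining markers in all 4 libraries.

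**Figure D3:**
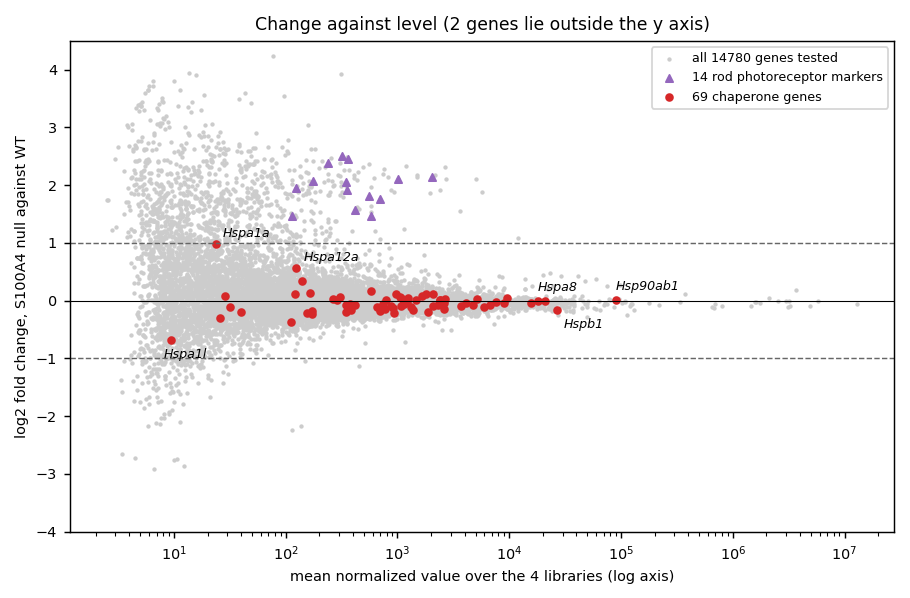
Log2 fold change, *S100A4*-/- against WT, against the mean normalized value over the 4 libraries (log axis) for the 14780 genes tested, with the 69 members and 14 rod photoreceptor markers drawn over them. The members with high values lie close to 0 and *Hspa1a* lies at 0.98, while all rod markers lie above 1; 2 genes fall outside the axis.

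The Hsp90 pair and the mitochondrial chaperonins had narrow intervals. *Hsp90ab1* had values of 85686 and 94386 in *S100A4*-/- and of 88589 and 90729 in WT lenses. Its log2 fold change was 0.00, and the interval from −0.08 to 0.09 makes it one of the most tightly bounded members. *Hsp90aa1*, the stress-inducible form, had values of 1971 and 2051 against 2112 and 2202, which did not overlap, with a log2 fold change of −0.10 (SE 0.06, adjusted p = 0.399, limma).

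*Hspe1* and *Hspd1* encode Hsp10 and Hsp60, the lid and the barrel of the mitochondrial chaperonin, from opposite strands of chromosome 1, with start sites 216 bases apart in RefSeq and 108 bases apart between the principal transcripts of GENCODE. *Hspe1* had values of 1834 and 1692 in *S100A4*-/- and of 2169 and 1887 in WT lenses. The groups did not overlap, but the WT libraries were further apart than the nearest values of the groups. The log2 fold change was −0.20 (SE 0.07, adjusted p = 0.0647, limma), and single libraries moved it. It passed the threshold without the second WT library (−0.30, adjusted p = 0.00813, limma), while without the first WT library it was −0.10 (adjusted p = 0.653, limma) and without the second *S100A4*-/- library −0.14 (adjusted p = 0.4265, limma). *Hspd1* had values of 1205 and 1343 against 1405 and 1329, which overlapped, with a log2 fold change of −0.10 (SE 0.07, adjusted p = 0.479, limma). The second *S100A4*-/- value of *Hspd1* lay between the WT values, so the negative change rested on the first.

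**Figure D4:**
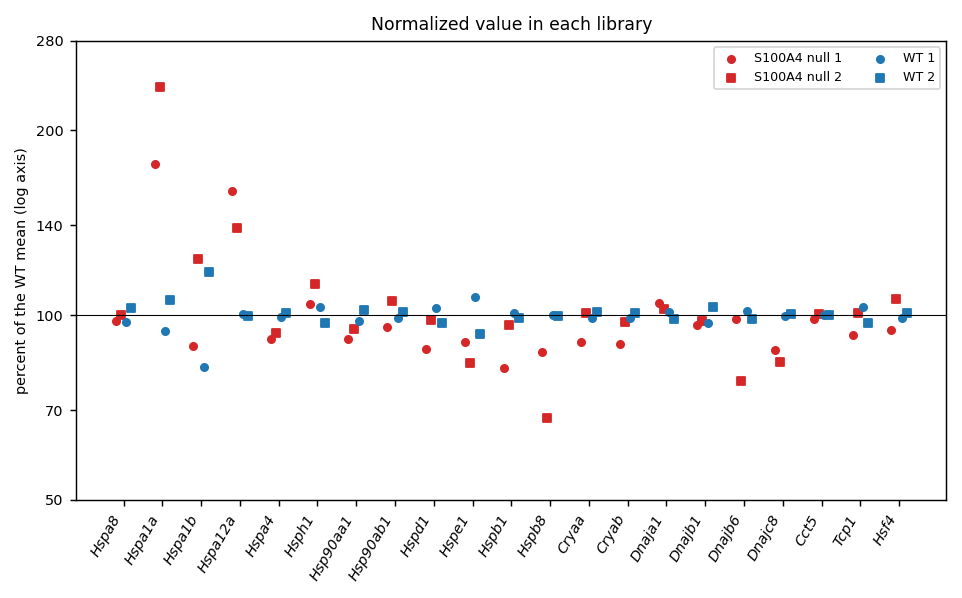
Normalized value of selected members, the alpha-crystallins, *Tcp1* and *Hsf4* in each of the 4 libraries, as a percent of the WT mean of the gene (log axis), with circles for the first and squares for the second library of a group. Most values lie within a narrow band around 100, and *Hspa1a* and *Hspa12a* stand above it in both *S100A4*-/- libraries. The first *S100A4*-/- library lies lowest for *Hspb1*, *Cryaa*, *Cryab* and several others, *Hsp90ab1* and *Hsf4* among them.

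The DnaJ proteins were the largest group, and of 39 genes in the 3 classes 0 passed the test (limma), with 4 at an unadjusted p under 0.05, where 17.7% of all genes tested passed. In class A the median log2 fold change was −0.06, in class B −0.03 and in class C −0.05. These medians moved with the scaling and with single libraries, and that of class A was −0.04 with equal totals and between −0.10 and −0.03 with 1 library left out. *Dnaja1*, a class A partner of Hsp70, had values of 1268 and 1244 in *S100A4*-/- and of 1230 and 1198 in WT lenses, with a log2 fold change of 0.05 and an interval from −0.09 to 0.19. *Dnaja2*, the class A gene with the highest level per kb, had 2445 and 2538 against 2775 and 2723, and *Dnaja4* had 1338 and 1275 against 1458 and 1476. Both had no overlap between groups, with log2 fold changes of −0.14 (SE 0.06, adjusted p = 0.142, limma) and −0.17 (SE 0.07, adjusted p = 0.147, limma).

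*Dnajb1* had values of 15284 and 15520 in *S100A4*-/- and of 15406 and 16348 in WT lenses, which overlapped, with a log2 fold change of −0.04 and an interval from −0.13 to 0.04. *Dnajb6*, which keeps aggregation-prone peptides in solution, had 181.5 and 143.9 against 186.9 and 181.8. Its first *S100A4*-/- library came within 1 unit of the WT range, and the log2 fold change was −0.19 (SE 0.16, adjusted p = 0.597, limma). In class C, *Dnajc7*, which binds Hsp70 and Hsp90 and had the highest level per kb of its class by the principal transcript (*Dnajc4* by all exons), had 2181 and 2266 against 2339 and 2348, with a log2 fold change of −0.08 and an interval from −0.19 to 0.04.

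The 25 genes of class C ran from −0.23 for *Dnajc9* to 0.33 for *Dnajc28* on the log2 scale, and the 10 of class B from −0.19 for *Dnajb6* to 0.04 for *Dnajb2*. *Dnajc28* had values of 139.6 and 173.3 in *S100A4*-/- and of 124.3 and 122.6 in WT lenses, with an interval from −0.02 to 0.69. *Dnajc9* had 160.1 and 156.1 against 177.5 and 194.9, with an interval from −0.55 to 0.08, and neither gene overlapped between the groups. *Dnajc8* had the smallest p of its class. Its values were 873.5 and 837.1 in *S100A4*-/- and 993.0 and 1001 in WT lenses, so the groups did not overlap, and the log2 fold change was −0.22 (SE 0.08, adjusted p = 0.0755, limma). *Dnajc2*, a ribosome-bound cochaperone, had 667.1 and 650.7 against 735.1 and 763.1, with a log2 fold change of −0.18 (SE 0.08, adjusted p = 0.225, limma).

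The ring-shaped chaperonin CCT is built of 8 different subunits in equal number, and 7 of their genes are among the members, with *Tcp1* as the remaining subunit gene and *Cct6b* as a further copy of the *Cct6a* gene. All 8 subunit genes had a log2 fold change below 0, from −0.09 to −0.01, and 0 of 8 passed the test. Of the 10133 genes tested whose mean value reached 100, 5744 lay below 0. *Cct5* had values of 20501 and 20939 in *S100A4*-/- and of 20854 and 20804 in WT lenses, which overlapped, with an interval of the log2 fold change from −0.09 to 0.08. *Tcp1* had 19981 and 21739 against 22196 and 20910, which also overlapped, with a log2 fold change of −0.05 (SE 0.04, adjusted p = 0.640, limma). On libraries scaled to equal totals *Cct5* lay at 0.02 on the log2 scale, so the common sign does not hold for every scaling.

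The RNA levels of the subunits were not equal. In WT lenses they ran from 1553 per kb for *Cct4* to 11241 per kb for *Cct5*, a ratio of 7.24, and with the length of all exons from 756 for *Cct3* to 7530 for *Cct5*, a ratio of 9.96. *Cct6a* exceeded *Cct6b* per kb 122-fold and 133-fold in *S100A4*-/- and 118-fold and 93.5-fold in WT lenses. *Cct6b* had values of 24.0 and 22.3 against 26.1 and 31.8, too few reads for a narrow interval.

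Of the list of heat shock factors 4 genes were analysed, *Hsf1*, *Hsf2*, *Hsf4* and *Hsbp1*, which encodes a protein that binds heat shock factors, and 0 passed the test (limma), with 0 at an unadjusted p under 0.05. *Hsf4* had values of 14264 and 16015 in *S100A4*-/- and of 14938 and 15211 in WT lenses, with a log2 fold change of 0.00 (SE 0.05, adjusted p = 0.981, limma), and the *S100A4*-/- libraries lay on either side of the WT ones. *Hsf1*, the factor of the classical heat shock response, had 471.0 and 559.4 against 592.0 and 532.1, with a log2 fold change of −0.13 (SE 0.10, adjusted p = 0.546, limma). Its second *S100A4*-/- value lay between the WT values, so the negative change rested on the first. *Hsf2* had 244.9 and 192.6 against 229.7 and 217.9, with a log2 fold change of −0.04 (SE 0.14, adjusted p = 0.923, limma). In value per kb *Hsf4*, at 8669, stood above *Hsf1*, at 270, and *Hsf2*, at 85.9, in WT lenses.

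By limma the related lists held a single call. Of 16 chaperones and cochaperones known to be driven by HSF1, *Hspb1* was the only one to pass, and the median log2 fold change was −0.03. Of 23 cochaperones of Hsp70, 20 cochaperones and paralogs of Hsp90 and 13 partners of the chaperonins, 0 passed, with medians of −0.06, −0.02 and −0.06. At an unadjusted p under 0.05 there were 3, 0 and 4 of them, beside 17.7% of all genes tested. The immediate early genes, which respond within minutes to many stimuli, had a median of 0.13 over 16 genes with 0 calls and 5 at an unadjusted p under 0.05. Among them *Fos* had values of 50.5 and 26.4 against 11.5 and 26.3, *Ier3* 47.1 and 36.5 against 15.7 and 24.1, and *Egr1* 71.1 and 89.2 against 53.3 and 44.9. The other two at an unadjusted p under 0.05 lay below WT, *Jun* with 906.9 and 1009 against 1140 and 1053, and *Klf6* with 1667 and 1545 against 1852 and 1757.

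Letters of the heat shock element were counted near the start sites, with no test of the shares. RefSeq windows from 250 bases before to 50 after the start site were matched for 56 of the 69 members, with 1 window per gene. At least 1 element of 2 units was found in 16 of them (28.6%) and in 15.1% of the windows of all genes, whether 1 per gene (27025) or all 32851 were taken. The longer form of 3 units, GAANNTTCNNGAA or TTCNNGAANNTTC, was found in 4 of them (7.14%), those of *Dnajb6*, *Hspd1*, *Hspe1* and *Hsph1*, and in 0.529% of the windows of all genes taken 1 per gene (0.603% of all windows), and it always contains the shorter form. *Hspd1* and *Hspe1* share 285 bases of their windows, so the same letters were counted for both genes. The capitals mark 3 overlapping elements of 2 units, which begin 89, 84 and 79 bases before the start site of *Hspe1* and make up 2 overlapping forms of 3 units, in the 30 bases from 95 to 66 before the start site of *Hspe1* (RefSeq, GRCm38.p6, chr1:55088053-55088082, plus strand).
Hspe1: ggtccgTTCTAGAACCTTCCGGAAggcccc
The median log2 fold change was −0.08 over the 16 members with an element of 2 units and −0.05 over the 40 without one. Of the 16 with the element 12 lay below 0 and 4 above 0 (*Hspa1a*, *Hspa1b*, *Hspb3* and *Hsph1*), and of the 40 without it 25 lay below and 15 above. Over all 14780 genes tested 7565 lay below 0 and 7215 above. Only *Hspb1* of these 56 members passed the test by limma.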

How the data were processed

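RNA of lenses was sequenced as stranded poly(A) libraries with single-end reads of 50 bases, 2 of *S100A4*-/- and 2 of WT mice, and groups were taken from the sample labels. After trimming with Trim Galore, the authors aligned the reads to GRCm38 (v73; mm10 in the submitters' processing notes) with STAR, and HTSeq counted those of a single locus per gene. Genes under 10 reads in all libraries were dropped, and DESeq2 gave the size factors. Versions are not given in the sources used here. The signal values the authors deposited are the counts divided by 1 size factor per library, without a correction for gene length. Of these values 100.0% in every library came out as whole reads (tolerance 0.05 reads), which gave back the counts. No column of sample values was left out (0 columns).

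Libraries were compared with limma 3.58.1 (trend of variance with level) on log2(value + 1) for the 14780 genes that reached a value of 10 in 1 library or more. Fold changes on this scale understate those of low genes. P-values were adjusted after Benjamini and Hochberg over every gene tested. The calls follow the fold change of 2 and the adjusted p of 0.05 of the study, and a second rule has no fold threshold. Alternatives were pseudocounts of 0.5 and 5, no filter, a minimum mean of 50, TMM factors, equal totals, quantile normalization, no trend, edgeR 4.0.16 and DESeq2 1.42.0 on the recovered reads, the replicate number as a block, and each library left out. The fits were tested on simulated data first.

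Symbols, coordinates and transcript lengths came from GENCODE M21 by gene identifier (14782 of 14924 genes), and promoter sequence from RefSeq (GRCm38.p6). The members and lists were chosen with earlier results of these data known. Named are the member with an adjusted p of at most 0.05, the member of each family with the highest level per length, the main stress-inducible and constitutive chaperones, *Hsf1*, *Hsf2*, *Hsf4*, *Tcp1* and the alpha-crystallins. *Hspa12a*, *Dnajc8*, *Dnaja4*, *Hspa4*, *Dnajc2*, *Dnajc9*, *Dnajc28*, *Dnajb2*, *Hspa1l*, *Aldh1a1* and other genes given by their values alone were picked once their values had been seen. The length of all exons was added as an alternative after the data were seen. R 4.3.3, Python 3.11.15, numpy 2.4.6, pandas 2.3.3 and matplotlib 3.10.9 were used.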

Additional observations from a re-analysis of the deposited data

How the results depend on the processing

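With 2 libraries per group the spread was estimated over all genes, and a library left alone in its group was assumed to vary like the others. Few reads limited *Hspa1a*, *Hspa1b*, *Hspa1l*, *Hspa12b*, *Dnajb3* and *Cct6b*, for which a change of 1.5-fold could not be shown. The median of all genes moved by less than 0.1 (log2) under every scaling. Over 32 named genes and 15 alternatives 476 values could be computed, of which 437 kept direction and side of the threshold, 15 lost a call (of *Hspb1* and *Aldh1a1*) and 6 gained one, and 18 changed sign, in 8 genes, none of them past the threshold. The cause of these changes was not tested.

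Same-numbered libraries did not deviate together over all genes (r = 0.012 across 14780 genes), and the labels name no pairing. With 2 libraries per group and low genes weighed like high ones, this correlation cannot show whether they were handled together. With the replicate block, 1 member rose (*Hspa12a*, adjusted p = 0.0325, limma) and 3 fell (*Hspb1*, *Hspe1* and *Dnajc8*, adjusted p of 0.000165, 0.0111 and 0.0368), 3 genes of the related lists fell, beside 982 genes that rose and 348 that fell in all.

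No member passed at 2-fold under any alternative. Called lower were 0 members, and 0 genes of the related lists, with equal totals, with quantile normalization, without the trend, by edgeR and by DESeq2, and edgeR called 1 member higher. Without the trend the adjusted p of *Hspb1* was 0.610, and with quantile normalization 0.0621.

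Of all genes, the main counts at 2-fold were 539 higher and 11 lower, and at any fold 831 and 197. They were 281, 6 and, higher at any fold, 549 with a mean value of at least 50. Without the trend they were 174 and 7 at 2-fold and 179 and 8 at any fold. Genes lower at 2-fold were 23 with quantile normalization and 6 by DESeq2, and lower at any fold 55 with equal totals and 90 by DESeq2.

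With equal totals the median log2 fold change was −0.0182 over the members, 0.0599 for Hsp70, −0.0357 for class A, −0.0022 for class B, −0.0242 for class C and −0.0259 for CCT, and with quantile normalization −0.0151 for CCT. With equal totals *Cct5* was at 0.0214 and *Hspa8* at 0.0148, and with quantile normalization *Cct5* at 0.0104, *Hspa8* at 0.0137, *Hsp90ab1* at −0.0339 and *Hspa1b* at −0.21.

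Leaving out 1 library at a time gave 275 to 535 genes higher and 6 to 13 lower at 2-fold, and 404 to 795 and 87 to 161 at any fold. Of the members 0 to 1 fell, and of the related lists 0 to 2 rose and 0 to 2 fell. Family medians ran from −0.03 to 0.0551 for Hsp70, −0.13 to −0.0013 for small heat shock proteins, −0.0519 to 0.0193 for class B, −0.0655 to −0.0098 for class C and −0.0813 to −0.025 for CCT. Log2 fold changes ran from −0.0229 to 0.0076 for *Cct5*, −0.14 to 0.01 for *Cryaa*, −0.22 to 0.13 for *Hsf2*, −0.0796 to 0.0874 for *Hsf4*, −0.0653 to 0.0742 for *Hsp90ab1*, −0.16 to 0.34 for *Hspa1b*, −0.0518 to 0.0232 for *Hspa8* and −0.11 to 0.0131 for *Tcp1*.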
